A study of Mus musculus with 9 samples.

Results

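The interferon-stimulated genes, which cells transcribe after exposure to type I interferons, were followed in meningeal lymphatic endothelial cells (MLECs), the cells that line the lymphatic vessels of the membranes around the brain. The set held 37 genes chosen by symbol, and all 37 were found among the 24321 genes of the deposited expression table. Values are FPKM, a measure of fragments scaled to transcript length and library size, in 9 RNA-seq libraries. Genes that reached an FPKM of 1 in 3 or more libraries were kept, which left 9955 genes for testing, among them 33 of the 37. The other 4, Oas2, Oas3, Mx1 and Mx2, were not tested.

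The study asked how an intracranial tumor changes meningeal lymphatic vessels, and compared MLECs of mice bearing a glioma (GL261) or a melanoma (B16) with MLECs of mice injected with PBS. All mice were male and 10 weeks old according to the labels, which give an injection of 5 µL into the cisterna magna with 100000 tumor cells. The methods of the study describe such an injection for another experiment, and for the collection of MLECs an injection of fewer cells under the dura. By the labels, GL261 MLECs were collected about 3 weeks and B16 MLECs about 2 weeks after injection, so that tumor line and time cannot be told apart, and the labels give no time for the controls. The study's text gives a shared time for all groups in its results and a range in its methods. There were 3 libraries in each of the 3 groups, each library made by Smart-seq2 from 10 cells sorted from the pooled meninges of 6 mice after staining for CD31, CD45 and LYVE-1, while the results section of the study names PDPN in place of LYVE-1. The replicates were therefore pools of different animals. In such bulk samples, fewer cells of a type and less RNA per cell cannot be told apart.

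Type I interferons bind the receptor chains IFNAR1 and IFNAR2, and through the kinases JAK1 and TYK2 the signal reaches transcription factors that bind the interferon-stimulated response element of their target genes. The products of these genes detect viral nucleic acids, restrict the entry or replication of viruses, amplify the response through IRF7, or end it through USP18 and SOCS1. Endothelial cells carry this pathway, and interferon gamma, which signals through another receptor, induces many of the same genes.

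Depth differed between the libraries. With the shallowest library set at 1, the relative depth recovered from the steps between low values was 1.36, 1.59 and 1 in control, 6.28, 6.68 and 3.69 in GL261 and 1.69, 3.13 and 3.77 in B16 replicates 1 to 3. Every control library was shallower than every tumor-associated library, so that depth and tumor status cannot be told apart over these libraries. The closest across that line were control replicate 2 and B16 replicate 1. Between the tumors, GL261 replicate 3 and B16 replicates 2 and 3 were of similar depth. An FPKM above 0 was listed for 7303, 8688 and 8152 genes in the control libraries, for 10777, 10852 and 9456 in GL261 and for 8736, 9258 and 9950 in B16 libraries. The basal transcription factor Tbp was at 0 in control replicates 1 and 3, so that a gene listed at 0 may still be transcribed. All differences below are differences of mean log2(FPKM + 1), a scale on which changes at low FPKM appear smaller than they are.

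The interferon-stimulated genes were highest in GL261 MLECs. Their mean log2(FPKM + 1) over all 37 genes was 2.46, 2.90 and 3.04 in the control libraries, 4.94, 3.93 and 4.15 in the GL261 libraries and 2.45, 2.35 and 2.90 in the B16 libraries. Each GL261 library lay above each control and each B16 library, and the ranges of control and B16 overlapped. Over all genes tested the mean ran from 2.96 to 3.27 in control, and for GL261 and B16 libraries from 3.34 to 3.48 and from 3.31 to 3.48. Of the 37 genes, 32 had their highest group mean in GL261, 5 in control and 0 in B16 MLECs, beside 35.5%, 31.6% and 32.9% of all genes tested. The members ranged widely in level, from a mean of 0.109 FPKM over the 9 libraries for Oas3 to 5569 FPKM for Ifitm3.

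**Figure D1:**
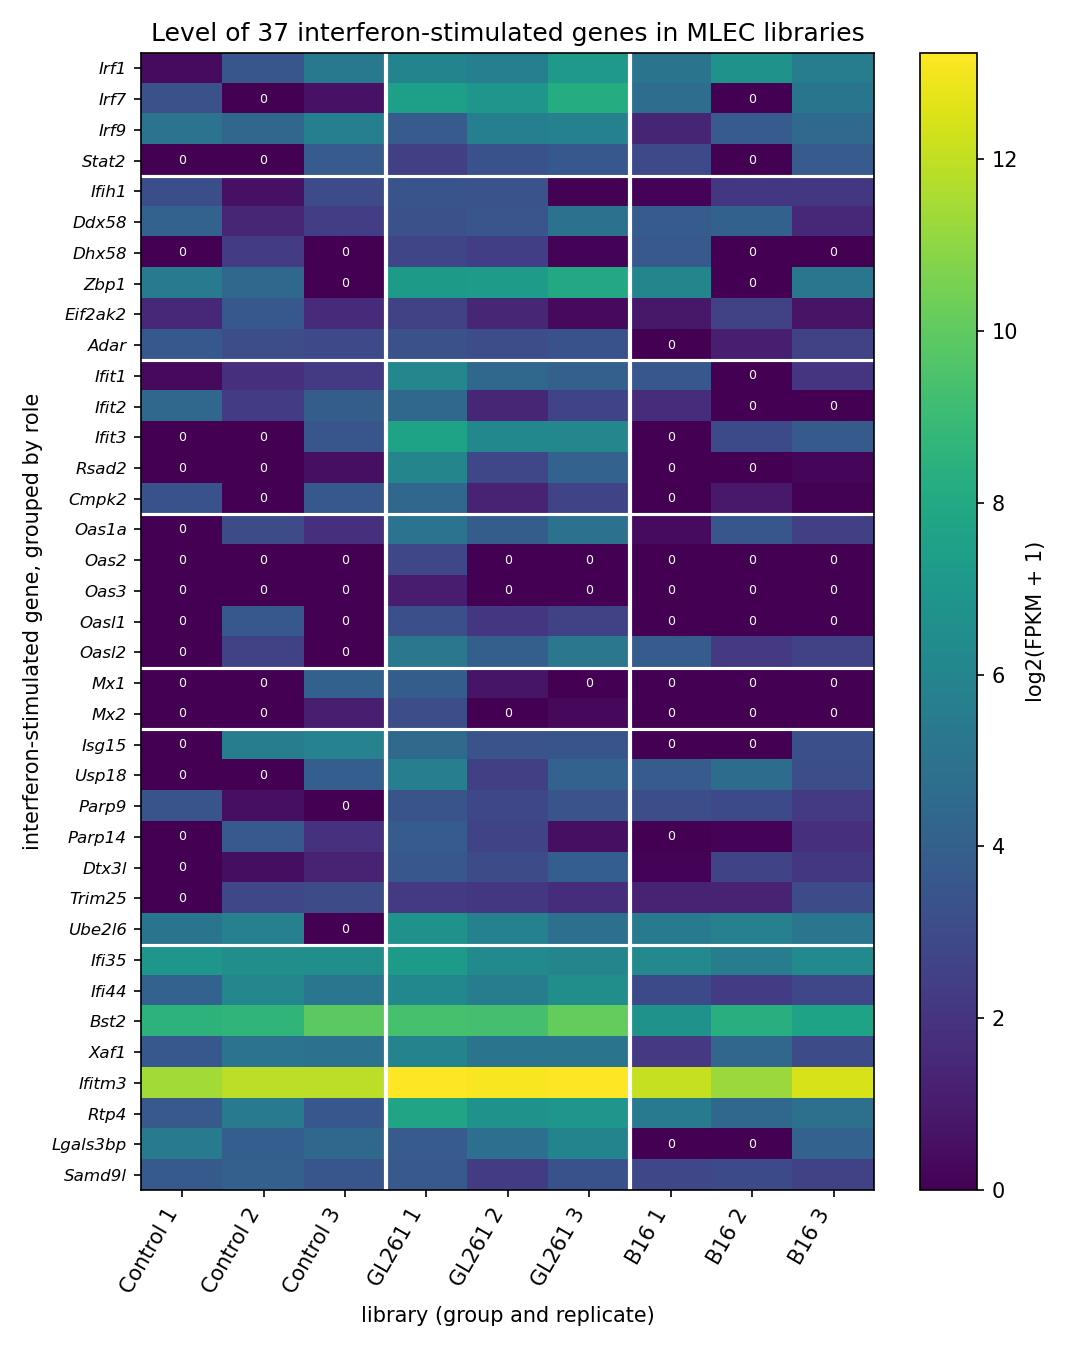
Level of each of the 37 interferon-stimulated genes (rows, grouped by role) in each library (columns), as log2(FPKM + 1), with 0 written where the gene is listed at 0. GL261 replicate 1 lists all 37 genes above 0, and B16 replicate 2 lists 23.

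In GL261 against control MLECs, 6 of the 37 genes passed an adjusted p of 0.05 in limma with Benjamini-Hochberg adjustment over all genes tested, and all 6 were higher in GL261. They were the transcription factor Irf7, the antiviral effectors Ifit3, Rsad2, Oasl2 and Ifitm3, and the chaperone Rtp4. Of all genes tested, 3.49% passed in either direction and 2.58% were higher. Rsad2 met the filter on low values only through its 3 GL261 libraries, so that it was kept for the values that set it apart. Without the 38 genes kept through GL261 libraries alone, 5 members passed, beside 2.45% of the other 9917 genes that were higher. At an unadjusted p under 0.05, 12 members, Rsad2 among them, were higher and 0 lower, beside 11.4% and 5.53% of all genes tested. With the number of genes above 0 as a covariate these counts were 4 and 2, and with the relative depth 2 and 0. A higher mean in GL261 was found for 32 members and a lower mean for 5, beside 57.5% of all genes tested that were higher. These counts were 27 and 10 after rescaling, 23 and 14 with the number of genes above 0, 24 and 13 with the relative depth, 23 and 12 without GL261 replicate 1, 29 and 8 without control replicate 1 and 27 and 10 without control replicate 2. All GL261 libraries lay above all control libraries for 12 members, Rsad2 among them, beside 13.7% of all genes tested, and below them for 0 members, beside 8.84%. The median difference of the 37 genes was 0.95, beside 0.23 for all genes tested, and it was 1.45 with a pseudocount of 0.1 and 0.56 with the number of genes above 0 as a covariate. The count of 6 changed when a library was left out: it was 0 without GL261 replicate 1 or 2, 1 without GL261 replicate 3, 2 without control replicate 1 and 3 without control replicate 2 or 3. It was also 0 without a filter on low values and with the relative depth or the number of genes above 0 as a covariate, 2 among genes above 0 in all 9 libraries and 3 with a pseudocount of 0.1.

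The count over all genes tested, 347, was 111, 105 and 172 without GL261 replicates 1, 2 and 3, 247, 363 and 266 without control replicates 1, 2 and 3 and 363, 290 and 296 without B16 replicates 1, 2 and 3. Without control replicate 2 the members past the threshold were thus fewer while those of all genes were more. The differences moved less: without GL261 replicate 1, 2 or 3, that of Irf7 was 6.27, 6.54 and 5.91, and that of Ifit3 was 4.98, 5.72 and 5.74. Each of the 6 genes kept its direction but lost the threshold under some alternatives. Apart from Rsad2, the call was lost in 10 of 17 alternatives for Ifit3, 9 of 17 for Irf7, 13 of 17 for Oasl2, 6 of 18 for Ifitm3 and 9 of 18 for Rtp4.

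In B16 against control MLECs, which share the same 3 control libraries, 0 of the 37 genes passed limma's adjusted threshold, beside 2.11% of all genes tested (1.61% higher and 0.502% lower). At an unadjusted p under 0.05, limma gave 1 member higher, Irf1, and 5 lower, Ifit2, Ifi44, Bst2, Adar and Lgals3bp, beside 9.95% of genes tested higher and 5.04% lower. There were 4 higher without control replicate 2, 3 lower without B16 replicate 1, and 0 higher and 3 lower with the relative depth as a covariate. All B16 libraries lay below all control libraries for 6 members, Ifit2, Ifi35, Ifi44, Bst2, Adar and Samd9l, beside 7.0% of all genes tested, and above them for 0 members, beside 10.2%. A higher mean in B16 was found for 16 members and a lower mean for 19, beside 57.0% of all genes tested that were higher. The median difference of the 37 genes was -0.08, beside 0.20 for all genes tested. The median was -0.26 without control replicate 1, 0.00 without control replicate 2 or 3, -0.36 without B16 replicate 1 and -0.25 without B16 replicate 3, and it was -0.49 with the relative depth and -0.68 with the number of genes above 0 as a covariate. It was -0.22 after quantile normalization, 0.00 with a pseudocount of 0.1 and -0.84 among genes above 0 in all libraries. Without control replicate 1 the count of members past the adjusted threshold was 1, Ifi44.

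The tumors were compared directly with each other. All 37 genes had a higher mean log2(FPKM + 1) in GL261 than in B16 MLECs, beside 50.6% of all genes tested, although for 5 of them (Oas2, Oas3, Oasl1, Mx1 and Mx2) every B16 library was listed at 0. After rescaling each library to the same sum, after quantile normalization or with a pseudocount of 0.1, 36 were higher and Eif2ak2 was lower. The median difference was 1.86, beside 0.01 for all genes tested. No single member passed: limma with Benjamini-Hochberg adjustment gave 0 members, beside 0.01% of all genes tested, and 15 members, Rsad2 among them, were higher and 0 lower at an unadjusted p under 0.05, beside 3.29% and 2.21% of all genes tested, or 5.5% in either direction. The 15 became 9 without GL261 replicate 1 and 8 with the relative depth as a covariate. All GL261 libraries lay above all B16 libraries for 17 members, Rsad2 among them, beside 7.13% of all genes tested, and below them for 0, beside 6.66%. Between the libraries of similar depth, 26 members were higher and 3 lower in GL261 replicate 3 than in both B16 replicates 2 and 3, beside 32.5% and 34.4% of all genes tested. With the number of genes above 0 as a covariate, 31 members were higher and 6 lower, and among the 12 members above 0 in all 9 libraries the median difference was 1.05.

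When GL261 and B16 MLECs were joined into 1 group of 6 tumor-associated libraries, 0 of the 37 genes passed limma's adjusted threshold against control, beside 3.93% of all genes tested. At an unadjusted p under 0.05, limma gave 7 members higher and 0 lower, beside 12.7% and 6.32% of all genes tested. The direction turned with the number of genes above 0 as a covariate, to 0 higher and 4 lower, and with the relative depth, to 0 higher and 7 lower. There were 4 higher without control replicate 2 and without GL261 replicate 1, 2 or 3. A higher mean was found for 22 members, beside 57.2% of all genes tested, and for 11 with either covariate. The two-sided exact permutation test over the 84 divisions of 9 libraries into 3 and 6, where no p can be below 0.0119, gave p under 0.05 for 3 members that were higher, Irf1, Oasl2 and Usp18, and for 1 that was lower, Samd9l, beside 10.0% and 6.17% of all genes tested. The groups overlapped for every member, beside 6.08% of all genes tested without overlap and higher and 4.44% without overlap and lower. The median difference of 0.21 stood beside 0.20 for all genes tested, and it turned to -0.94 with the relative depth, to -0.85 with the number of genes above 0 as a covariate and to -0.40 among genes above 0 in all libraries. It was 0.80 with a pseudocount of 0.1, 0.09 after quantile normalization, 0.47 without control replicate 2 or 3, 0.00 without GL261 replicate 1, 0.33 without GL261 replicate 2 or B16 replicate 1 and 0.38 without B16 replicate 2 or 3. The count of members past the threshold was 1 without control replicate 2 or B16 replicate 2 and 2 without control replicate 3.

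**Figure D2:**
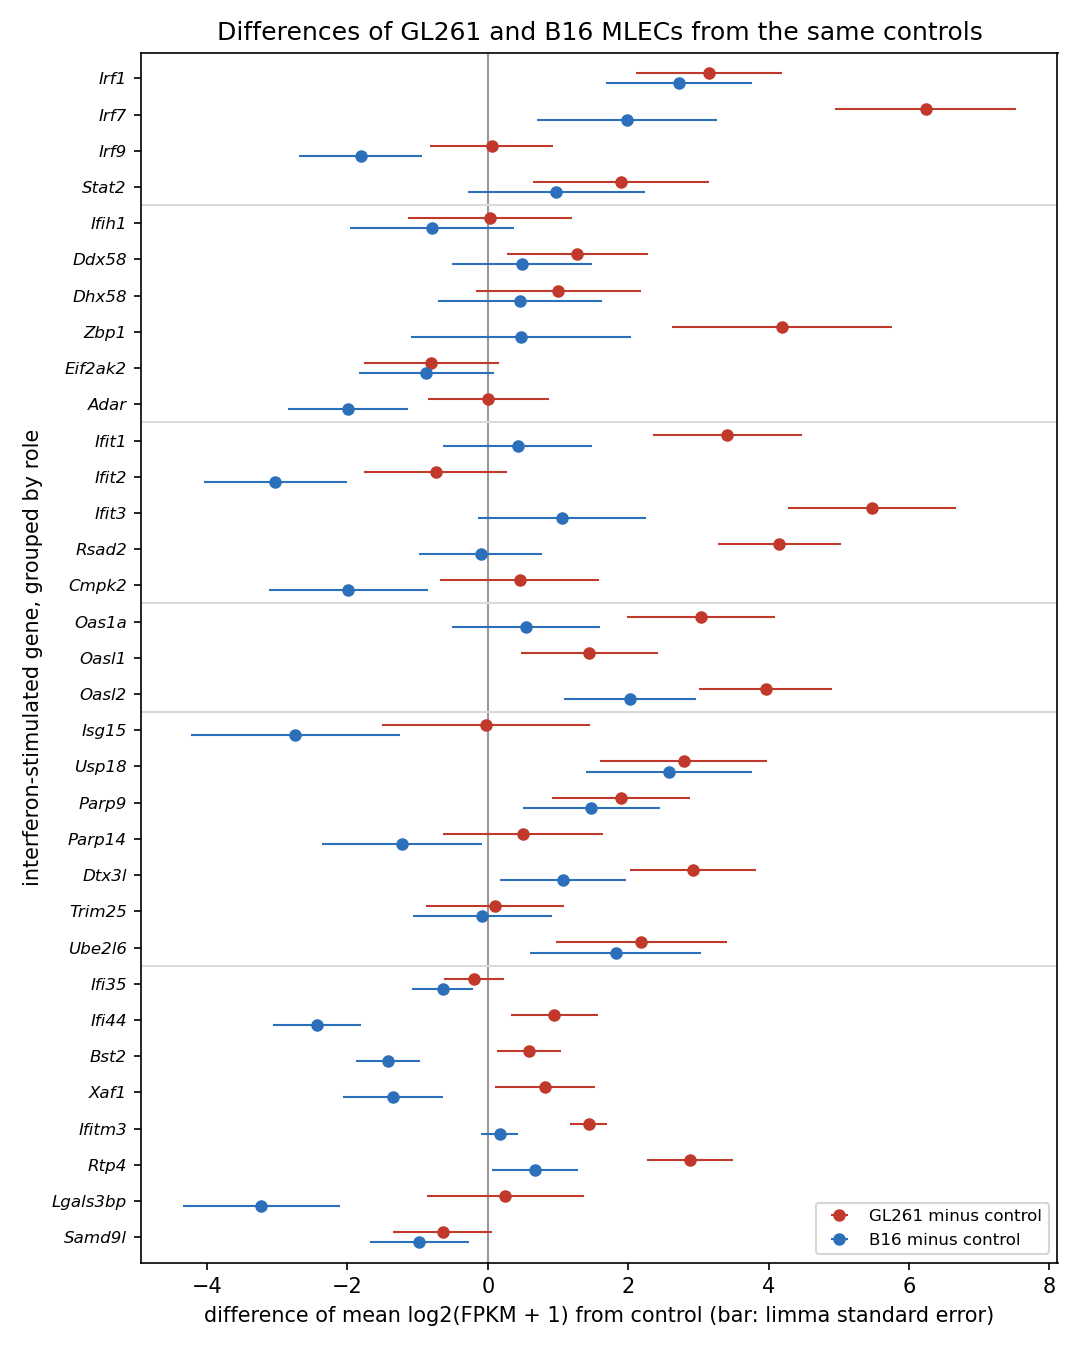
Differences of the mean log2(FPKM + 1) of GL261 (red) and B16 MLECs (blue) from the same 3 control libraries for the 33 genes tested, with limma's standard error as bars; B16 Oasl1, listed at 0 in every B16 library, is left out. Irf7 has the largest GL261 difference, 6.24, and the B16 value lies to the left of the GL261 value for all genes with both.

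The ligands of the pathway were nearly all listed at 0. Of 18 type I interferon genes in the table, 15, Ifnb1 among them, were listed at 0 in all 9 libraries. Ifna5 was listed at 1.71 FPKM in control replicate 2 alone, Ifnab at 3.34 FPKM in GL261 replicate 1 alone, and Ifnz reached at most 0.0885 FPKM. Interferon gamma (Ifng) and the interferon lambda genes Ifnl2 and Ifnl3 were also listed at 0 in all 9 libraries.

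Receptors and kinases were listed above 0 in most libraries, and 0 of 9 passed limma's adjusted threshold in any comparison with Benjamini-Hochberg adjustment. At an unadjusted p under 0.05, 3 of the 9 were higher in GL261 and 2 in B16 than in control MLECs, beside 11.4% and 9.95% of all genes tested. Between the tumors, limma gave 1 higher and 0 lower in GL261 at that level, beside 3.29% and 2.21%. All GL261 libraries lay above all B16 libraries for 2 of the 9, beside 7.13%, and below them for 0, beside 6.66%. Ifnar2, a chain of the type I interferon receptor, had 113, 70.8 and 129 FPKM in control, 124, 69.2 and 128 FPKM in GL261 and 89.0, 174 and 90.6 FPKM in B16 libraries. The partner chain Ifnar1 had 1.51, 12 and 3.52 FPKM in control, 7.27, 4.93 and 12.4 FPKM in GL261 and 7.75, 16.2 and 12.9 FPKM in B16 libraries. For both chains the 3 groups overlapped. Ifngr2, a chain of the interferon gamma receptor, had 0.332, 27.1 and 15.3 FPKM in control, 33.2, 50.6 and 75.5 FPKM in GL261 and 43.1, 82.7 and 86.1 FPKM in B16 libraries. Its 6 tumor-associated libraries all lay above the controls, and GL261 and B16 overlapped. The other chain, Ifngr1, lay between 49.5 and 104 FPKM. The kinases Jak1 and Jak2 lay between 23.1 and 49.1 and between 2.61 and 11.5 FPKM, and Tyk2 was at most 2.65 FPKM. Stat3 was at 0, 11.6 and 11.8 FPKM in control libraries and between 12.8 and 67.2 FPKM in the 6 others.

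The 4 transcription factors among the members differed from each other. Irf7, which amplifies the interferon response and lies on chromosome 7 from 148448605 to 148452380 in mm9, had 8.81, 0 and 0.540 FPKM in control, 178, 122 and 293 FPKM in GL261 and 25.3, 0 and 34.2 FPKM in B16 libraries. All 3 GL261 libraries were high, above every other library, whereas control and B16 overlapped and each held a library listed at 0. Irf7 was higher in GL261 than in control MLECs by 6.24 (standard error 1.29, limma's Benjamini-Hochberg adjusted p = 0.0226) and higher than in B16 MLECs by 4.26 (limma's unadjusted p = 0.00655, adjusted p = 0.490), or by 2.62 without B16 replicate 2. The Irf7 call was lost without control replicate 2 or 3 (limma's Benjamini-Hochberg adjusted p 0.0585 and 0.0659) and without GL261 replicate 1, 2 or 3 (0.0948, 0.0824 and 0.0940). Exons of Irf7 overlap those of Phrf1 on the opposite strand, and reads of the pair cannot be told apart without strand.

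Irf1, a factor induced early by interferons, had 0.328, 10.7 and 40.4 FPKM in control, 61.2, 51.9 and 135 FPKM in GL261 and 33.4, 109 and 47.9 FPKM in B16 libraries. All GL261 libraries were above all controls, and only B16 replicate 1 lay below the highest control library. The difference from control was 3.15 in GL261 (standard error 1.04, limma's Benjamini-Hochberg adjusted p = 0.138) and 2.72 in B16 MLECs (standard error 1.04, limma's adjusted p = 0.242). With both tumors joined, the two-sided exact permutation test gave p = 0.0238 for Irf1, and limma's Benjamini-Hochberg adjusted p was 0.082. The GL261 difference was 4.28 without control replicate 3 (limma's Benjamini-Hochberg adjusted p = 0.0402) and 1.80 without control replicate 1 (limma's adjusted p = 0.231), and 1.88 with the number of genes above 0 as a covariate. The B16 difference of Irf1 was 1.37 without control replicate 1 (limma's Benjamini-Hochberg adjusted p = 0.401) and 3.85 without control replicate 3 (0.0705).

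Irf9 and Stat2, which act together at the response element, did not separate the groups. Irf9 had 31.4, 20 and 50.5 FPKM in control, 12.8, 50.5 and 54.3 FPKM in GL261 and 1.58, 12.8 and 21.6 FPKM in B16 libraries. Stat2 had 0, 0 and 12.9 FPKM in control, 4.62, 9.14 and 11.5 FPKM in GL261 and 6.56, 0 and 12.9 FPKM in B16 libraries. For both genes all 3 groups overlapped, and their differences of 0.06 and 1.90 between GL261 and control MLECs did not pass limma. That of Irf9 turned to -0.26 without control replicate 2, to -0.24 and -0.29 without GL261 replicates 2 and 3, to -0.25 after rescaling and to -0.44 and -1.50 with the number of genes above 0 and the relative depth as a covariate. That of Stat2 was 1.26 without control replicate 1 or 2, 3.16 without control replicate 3, 3.98 with a pseudocount of 0.1 and 4.73 with the relative depth.

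Of the 6 sensors of RNA and DNA and RNA-binding enzymes, 0 passed limma's adjusted threshold in any comparison, and at an unadjusted p under 0.05 1 was higher in GL261 and 1 lower in B16 than in control MLECs, beside 11.4% and 5.04% of all genes tested. Zbp1, a sensor of left-handed nucleic acids, had 40.8, 21.1 and 0 FPKM in control, 144, 152 and 254 FPKM in GL261 and 66.1, 0 and 35.8 FPKM in B16 libraries. All GL261 libraries were above all others, and control and B16 each held a library listed at 0. The difference of Zbp1 from control was 4.20 in GL261 (standard error 1.57, limma's Benjamini-Hochberg adjusted p = 0.190), and 2.55 without control replicate 3.

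Adar, which edits adenosine to inosine in double-stranded RNA, had 11.5, 7.75 and 6.47 FPKM in control, 8.63, 7.63 and 8.96 FPKM in GL261 and 0, 1.13 and 5.03 FPKM in B16 libraries. B16 libraries were low and lay below all others, whereas GL261 and control overlapped. Its difference from control was -2.0 in B16 MLECs (standard error 0.86, limma's unadjusted p = 0.0388, Benjamini-Hochberg adjusted p = 0.301), -3.30 with a pseudocount of 0.1 and -3.14 with the relative depth as a covariate. The RNA helicases Ifih1, Ddx58 and Dhx58 and the kinase Eif2ak2 stayed at or below 30.8 FPKM, with groups that overlapped in all comparisons, and their GL261 differences from control lay between -0.81 and 1.27. With the number of genes above 0 as a covariate those of Ifih1 and Dhx58 changed sign, and that of Ifih1, 0.03, also did without control replicate 2 or GL261 replicate 1 or 2, among others.

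Of the 5 genes of the IFIT and viperin group, 2 passed limma's adjusted threshold in GL261 against control MLECs, beside 2.58% of all genes tested that were higher. They were Ifit3 and Rsad2, which was kept through GL261 libraries alone. GL261 libraries lay above all control libraries for 3 of the 5 and above all B16 libraries for 4, beside 13.7% and 7.13% of all genes tested. Ifit3, a cofactor of the RNA-binding protein IFIT1 (chromosome 19, 34658021 to 34663221), had 0, 0 and 10.5 FPKM in control, 201, 71.1 and 69.4 FPKM in GL261 and 0, 6.91 and 12.3 FPKM in B16 libraries. Every GL261 library was several-fold above every other library. Ifit3 was higher in GL261 than in control MLECs by 5.48 (standard error 1.20, limma's Benjamini-Hochberg adjusted p = 0.0300) and higher than in B16 MLECs by 4.42 (limma's unadjusted p = 0.00331, adjusted p = 0.381). The Ifit3 call was lost without control replicate 1 or 2 (limma's Benjamini-Hochberg adjusted p 0.0796 and 0.0713) and without GL261 replicate 1, 2 or 3 (0.144, 0.101 and 0.0825), and the difference was 2.96 with the number of genes above 0 and 3.38 with the relative depth as a covariate. A transcript of another gene, I830012O16Rik, is 97.8% identical to Ifit3, so that the division of reads between them is uncertain.

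Rsad2, which encodes viperin (chromosome 12, 27127618 to 27141317), had 0, 0 and 0.464 FPKM in control, 64.5, 6.01 and 16.9 FPKM in GL261 and 0, 0 and 0.183 FPKM in B16 libraries. It was thus near 0 in all control and B16 libraries and above both groups in all 3 GL261 libraries. The difference was 4.15 from control and 4.25 from B16 MLECs, and 6.73 and 7.06 with a pseudocount of 0.1. Rsad2 met the filter only through these GL261 libraries, and without a filter it did not pass (limma's Benjamini-Hochberg adjusted p = 0.0590 against control and 0.283 against B16).

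Ifit1, which binds viral RNA ends, had 0.253, 2.39 and 3.77 FPKM in control, 67.9, 20.1 and 15.8 FPKM in GL261 and 11, 0 and 3.08 FPKM in B16 libraries. GL261 libraries were the highest and overlapped neither other group. The difference from control was 3.41 (standard error 1.06, limma's Benjamini-Hochberg adjusted p = 0.115), which did not pass, and 5.16 with the relative depth as a covariate.

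Ifit2 and Cmpk2 ran differently from these genes. Ifit2 had 21.3, 4.19 and 14.2 FPKM in control, 20.6, 1.72 and 5.38 FPKM in GL261 and 2.23, 0 and 0 FPKM in B16 libraries. Cmpk2, a nucleotide kinase that lies beside Rsad2 on chromosome 12, had 9.23, 0 and 11.4 FPKM in control, 19.7, 1.37 and 5.66 FPKM in GL261 and 0, 0.894 and 0.0736 FPKM in B16 libraries. For Ifit2 all B16 libraries lay below all controls, for Cmpk2 all B16 libraries lay below all GL261 libraries, and both genes overlapped between GL261 and control. Ifit2 differed between B16 and control by -3.03 (standard error 1.02, limma's unadjusted p = 0.0122, Benjamini-Hochberg adjusted p = 0.179), by -5.26 with a pseudocount of 0.1 and by -1.84 with the relative depth as a covariate.

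The OAS family makes the second messenger that activates RNase L, or, in the OAS-like proteins, acts in part without that activity. Oasl2 (chromosome 5, 115346943 to 115362243) had 0, 5.02 and 0 FPKM in control, 36.3, 15.1 and 36.5 FPKM in GL261 and 13.4, 3.55 and 5.17 FPKM in B16 libraries. The GL261 libraries were above all others, and B16 libraries overlapped with control replicate 2 only. Oasl2 was higher in GL261 than in control MLECs by 3.96 (standard error 0.94, limma's Benjamini-Hochberg adjusted p = 0.0424), and the B16 difference was 2.02 (standard error 0.94, limma's adjusted p = 0.340). The Oasl2 call was lost without control replicate 1 or 3 (limma's Benjamini-Hochberg adjusted p 0.0969 and 0.0950), without GL261 replicate 1, 2 or 3 (0.176, 0.104 and 0.145) and without B16 replicate 2 or 3 (0.0582 and 0.0662). The differences were 6.20 in GL261 and 4.10 in B16 with a pseudocount of 0.1. With both tumors joined, the two-sided exact permutation test gave p = 0.0238 for Oasl2, and limma's Benjamini-Hochberg adjusted p was 0.0935.

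Oas1a had 0, 6.99 and 2.5 FPKM in control, 32.4, 14 and 29.6 FPKM in GL261 and 0.296, 10.6 and 4.71 FPKM in B16 libraries. Oasl1 had 0, 11.4 and 0 FPKM in control, 8.45, 3.29 and 5.15 FPKM in GL261 and was listed at 0 in every B16 library. GL261 values of Oas1a were above all others. Those of Oasl1 lay above B16 and above control replicates 1 and 3 but below control replicate 2. Oas1a is 96.8% identical to Oas1g over the aligned transcript, and its difference of 3.04 from control in GL261 MLECs did not pass (standard error 1.05, limma's Benjamini-Hochberg adjusted p = 0.155). The difference of Oas1a was 0.81 with the number of genes above 0 and 0.69 with the relative depth as a covariate.

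Oas2 and Oas3 were listed above 0 in GL261 replicate 1 alone, at 6.13 and 0.985 FPKM. The dynamin-like GTPases Mx1 and Mx2 were listed at 0 in every B16 library. Mx1 had 0, 0 and 16.4 FPKM in control and 14.1, 0.652 and 0 FPKM in GL261 libraries, and Mx2 had 0, 0 and 1.13 FPKM in control and 8.05, 0 and 0.206 FPKM in GL261 libraries. High values of these 4 genes therefore came from single libraries, and control and GL261 MLECs overlapped.

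Isg15, the ubiquitin-like modifier attached to other proteins after interferon, did not pass limma in any comparison. It had 0, 46.5 and 57.7 FPKM in control, 22.7, 9.42 and 9.64 FPKM in GL261 and 0, 0 and 8.32 FPKM in B16 libraries. The highest values were those of control replicates 2 and 3, and all GL261 libraries lay above all B16 libraries. The difference of Isg15 from control was -0.03 in GL261 (standard error 1.49) and -2.74 in B16 MLECs (standard error 1.49, limma's Benjamini-Hochberg adjusted p = 0.418). The GL261 difference of Isg15 was -1.94 without control replicate 1, 0.85 and 1.00 without control replicates 2 and 3, 0.99 with a pseudocount of 0.1 and -5.28 with the number of genes above 0 as a covariate, and it changed sign without GL261 replicate 2 or 3 as well. The B16 difference was -4.65 without control replicate 1 (limma's Benjamini-Hochberg adjusted p = 0.0610), -1.71 without control replicate 3 and -5.61 with the number of genes above 0 as a covariate.

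Usp18, the protease that removes ISG15 and damps receptor signaling, had 0, 0 and 14.5 FPKM in control, 50, 4.66 and 16.8 FPKM in GL261 and 13.1, 24.9 and 8.15 FPKM in B16 libraries. Control replicates 1 and 2 were listed at 0 and all 6 tumor-associated libraries above it, but control replicate 3 lay among them. Usp18 had p = 0.0476 in the two-sided exact permutation test of both tumors joined against control, and limma's Benjamini-Hochberg adjusted p was 0.160.

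Dtx3l, a ubiquitin ligase that works with the ADP-ribosyltransferase Parp9, had 0, 0.419 and 1.5 FPKM in control, 11, 7.40 and 14.4 FPKM in GL261 and 0.0984, 5.65 and 3.46 FPKM in B16 libraries. The GL261 libraries did not overlap the others. The difference of Dtx3l from control was 2.92 (standard error 0.90, limma's Benjamini-Hochberg adjusted p = 0.111), 4.61 with a pseudocount of 0.1 and 1.75 with the relative depth as a covariate. Dtx3l and Parp9 overlap on opposite strands. In the whole group of 7 genes for ISG15, ubiquitin or ADP-ribose transfer, 0 passed limma's adjusted threshold in any comparison. At an unadjusted p under 0.05, 2 of the 7 were higher in GL261 than in control MLECs, beside 11.4% of all genes tested, and 0 were lower. Parp9, Parp14, Trim25 and Ube2l6 had groups that overlapped in all comparisons, with GL261 differences from control between 0.10 and 2.18. Those of Parp14 and Trim25 changed sign with either covariate for depth and without control replicate 1 or GL261 replicate 1, and that of Ube2l6 with the relative depth.

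Among the 8 membrane restriction factors and other effectors, 2 passed limma's adjusted threshold in GL261 against control MLECs, beside 2.58% of all genes tested that were higher. At limma's unadjusted p under 0.05, 3 were lower in B16 than in control MLECs (Ifi44, Bst2 and Lgals3bp), beside 5.04% of all genes tested, and 6 were higher in GL261 than in B16 MLECs, beside 3.29%. B16 libraries lay below all control libraries for 4 of the 8, beside 7.0% of all genes tested. Ifitm3, which blocks the fusion of viruses in endosomes (chromosome 7, 148195485 to 148196669), was the most abundant member in every library, with 2673, 3845 and 3842 FPKM in control, 9593, 8680 and 9376 FPKM in GL261 and 4304, 2391 and 5418 FPKM in B16 libraries. GL261 libraries were well above all others and close to each other, and control and B16 overlapped. Ifitm3 was higher in GL261 than in control MLECs by 1.43 (standard error 0.26, limma's Benjamini-Hochberg adjusted p = 0.0121) and higher than in B16 MLECs by 1.27 (limma's unadjusted p = 3.96e-04, adjusted p = 0.171). The Ifitm3 call was lost without GL261 replicate 1 or 2 (limma's Benjamini-Hochberg adjusted p 0.0619 and 0.0503) and after quantile normalization (0.123).

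Rtp4, a receptor-transporting protein induced by interferons (chromosome 16, 23610005 to 23614308), had 11.9, 44.0 and 11.1 FPKM in control, 212, 106 and 122 FPKM in GL261 and 43.9, 20.2 and 28.6 FPKM in B16 libraries. Each GL261 library was above each other library, and the B16 values lay within the control range. Rtp4 was higher in GL261 than in control MLECs by 2.88 (standard error 0.61, limma's Benjamini-Hochberg adjusted p = 0.0260) and higher than in B16 MLECs by 2.21 (limma's unadjusted p = 0.00372, adjusted p = 0.386). The Rtp4 call was lost without control replicate 1 or 3 (limma's Benjamini-Hochberg adjusted p 0.0643 and 0.0661) and without GL261 replicate 1, 2 or 3 (0.134, 0.0830 and 0.0746).

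**Figure D3:**
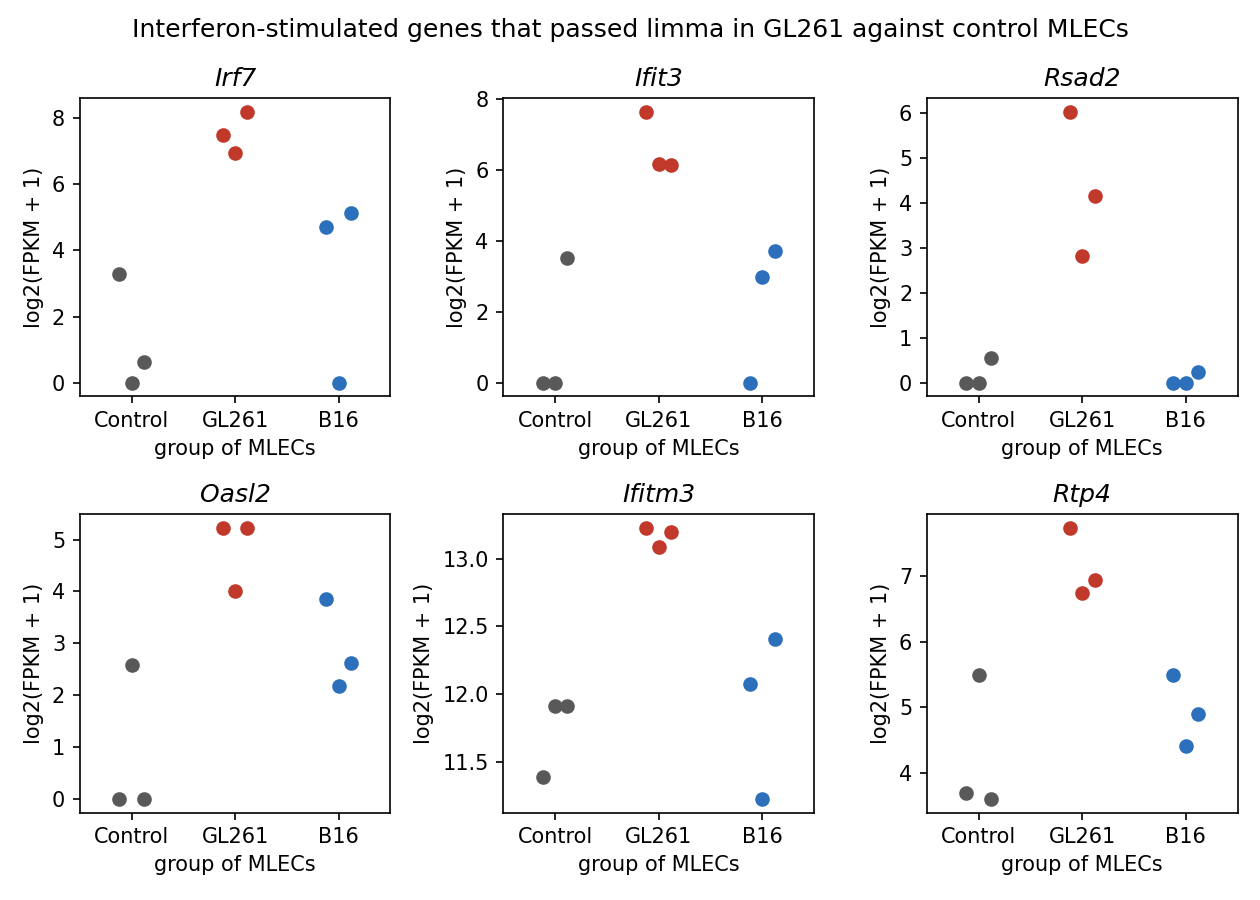
Level of the 6 interferon-stimulated genes that passed limma in GL261 against control MLECs, as log2(FPKM + 1) on axes that do not start at 0, with 1 point per library and 3 libraries per group. For all 6 genes, Rsad2 included, which met the filter only through GL261 libraries, each GL261 point lies above each control and each B16 point.

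For Ifi44 and Bst2, B16 MLECs stood below both other groups. Ifi44, a cytoplasmic protein induced by interferons, had 16.8, 67.5 and 36.1 FPKM in control, 72.0, 47.0 and 91.4 FPKM in GL261 and 6.75, 4.15 and 6.15 FPKM in B16 libraries. Bst2, or tetherin, which holds budding viruses at the cell surface, had 375, 396 and 937 FPKM in control, 673, 638 and 1086 FPKM in GL261 and 106, 329 and 203 FPKM in B16 libraries. For both genes every B16 library lay below every control and every GL261 library, and GL261 and control overlapped. Ifi44 differed between GL261 and B16 by 3.38 (standard error 0.62, limma's unadjusted p = 1.76e-04, Benjamini-Hochberg adjusted p = 0.128), and Bst2 by 2.01 (standard error 0.46, limma's unadjusted p = 9.55e-04, adjusted p = 0.233). Against control, the B16 differences were -2.44 for Ifi44 and -1.43 for Bst2, with Benjamini-Hochberg adjusted p of 0.0730 and 0.152 from limma. Without control replicate 1 the B16 difference of Ifi44 was -2.94 (limma's Benjamini-Hochberg adjusted p = 0.0331).

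Xaf1, a pro-apoptotic factor, had 11.5, 31.9 and 31.1 FPKM in control, 59.6, 33.5 and 33.3 FPKM in GL261 and 3.51, 19.5 and 7.51 FPKM in B16 libraries. GL261 libraries were above all others, by little over control replicates 2 and 3, and the GL261 difference of 0.82 turned to -0.63 with either covariate for depth and was 0.35 without control replicate 1 and 0.52 after rescaling. Lgals3bp, a secreted galectin ligand, had 42.9, 14.4 and 20.9 FPKM in control, 13.0, 27.4 and 61.3 FPKM in GL261 and 0, 0 and 17.0 FPKM in B16 libraries. Its groups overlapped in all comparisons. Ifi35 and Samd9l lay lower in all B16 than in all control libraries, with differences of -0.64 and -0.97 that did not pass limma, and that of Ifi35 was -0.42 without B16 replicate 2. Ifi35 had 124, 93.4 and 94.9 FPKM in control, 148, 76.3 and 64.8 FPKM in GL261 and 74, 47.8 and 80.6 FPKM in B16 libraries. Samd9l had 12.3, 15.8 and 10.5 FPKM in control, 11.8, 4.17 and 9.19 FPKM in GL261 and 6.12, 6.83 and 5.06 FPKM in B16 libraries. With both tumors joined, Samd9l was lower than in control by a difference of -0.81, and the two-sided exact permutation test gave p = 0.0476. Limma's Benjamini-Hochberg adjusted p for that difference was 0.486. Exons of Irf1, Oasl1, Ifi35, Dhx58 and Eif2ak2 overlap genes on the opposite strand and those of Irf9 overlap Rnf31 on the same strand, so that their values are uncertain to that extent.

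The other genes of the response were taken from a list of 52. In GL261 against control MLECs 3 were higher and 0 lower past limma's adjusted threshold, in B16 against control MLECs 0 higher and 1 lower, and between the tumors 0. Of all genes tested, 2.58% were higher in GL261 and 0.502% lower in B16. The 3 were Ifitm2, Ly6e and Ifitm1, which met the filter only through its GL261 libraries. Between the tumors, 8 were higher and 1 lower in GL261 at limma's unadjusted p under 0.05, beside 3.29% and 2.21% of all genes tested. The median difference between GL261 and B16 MLECs was 0.92, beside 0.01 for all genes tested, and 40 of the 52 had the higher mean in GL261, beside 50.6%.

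Ifitm1, a membrane relative of Ifitm3, was listed at 0 in all control and all B16 libraries and had 221, 18.3 and 737 FPKM in GL261 libraries. Tested without a filter on low values, Ifitm1 passed in GL261 against control MLECs (limma's Benjamini-Hochberg adjusted p = 0.0297), but not with the number of genes above 0 (0.290) or the relative depth (0.353) as a covariate. Ifitm2 had 1807, 2051 and 2121 FPKM in control, 5104, 4587 and 4292 FPKM in GL261 and 2767, 2978 and 5043 FPKM in B16 libraries. Both tumor groups lay above control for Ifitm2, with a GL261 difference of 1.23 (limma's Benjamini-Hochberg adjusted p = 0.0103), a call lost in 5 of 18 alternatives, among them those without GL261 replicate 1 or 2 (0.0618 and 0.0502). The B16 difference was 0.80 and did not pass (limma's Benjamini-Hochberg adjusted p = 0.0805). Ly6e, an interferon-induced surface protein, had 552, 1096 and 649 FPKM in control, 1503, 1825 and 1409 FPKM in GL261 and 774, 571 and 719 FPKM in B16 libraries. All GL261 libraries lay above all others, and the difference from control was 1.10 (standard error 0.27, limma's Benjamini-Hochberg adjusted p = 0.0470). The Ly6e call was lost in 15 of 18 alternatives, among them each library left out apart from control replicate 2. Ifi27l2a was the gene lower in B16, with 101, 99.6 and 515 FPKM beside 1052, 1154 and 1503 FPKM in control and 648, 738 and 1774 FPKM in GL261 libraries. All 3 B16 libraries lay below all others, and the difference from control was -2.81 (standard error 0.58, limma's Benjamini-Hochberg adjusted p = 0.0311). The Ifi27l2a call was lost in 8 of 18 alternatives, among them those without control replicate 1, 2 or 3 (limma's adjusted p 0.0627, 0.0550 and 0.0826) and without B16 replicate 1 or 2 (0.107 and 0.112).

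Inhibitors of the pathway and the pathway that induces interferon were compared in the same way. Of 9 inhibitors, Socs1, which binds and blocks JAK kinases, passed as higher in GL261 against control MLECs, beside 2.58% of all genes tested. It was listed at 0 in every control library and had 56.8, 65.6 and 8.84 FPKM in GL261 and 0.498, 14.3 and 15.8 FPKM in B16 libraries (limma's Benjamini-Hochberg adjusted p = 0.0306 for GL261 and 0.251 for B16 against control), and met the filter only through tumor-associated libraries; without a filter it did not pass (0.0762 for GL261). All 6 tumor-associated libraries were thus above control, and GL261 and B16 overlapped. The GL261 difference of 5.07 was 1.59 with the number of genes above 0 and turned to -0.47 with the relative depth as a covariate, and the Socs1 call was lost without control replicate 1, 2 or 3 (limma's Benjamini-Hochberg adjusted p 0.0627, 0.0556 and 0.0656) and without GL261 replicate 1 or 2 (0.135 and 0.140). Socs3 had 51.9, 104 and 124 FPKM in GL261, below 210, 221 and 168 FPKM in B16, and 66.6, 130 and 77.5 FPKM in control libraries. Its difference between GL261 and B16 MLECs was -1.17 and did not pass (limma's unadjusted p = 0.0185, Benjamini-Hochberg adjusted p = 0.756). Of 16 genes of the induction pathway in the table, such as Tmem173 (STING), Irf3 and Tlr3, 11 were tested and 0 passed limma's adjusted threshold in any comparison. At an unadjusted p under 0.05, 1 of the 11 was higher, Tlr3, and 1 lower, Irf3, in GL261 than in control MLECs, which is near the 11.4% and 5.53% of all genes tested.

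The GTPases that interferon gamma induces most, of the GBP and IRG families, numbered 17. A higher mean in GL261 than in control was found for 16 of them, beside 57.5% of all genes tested, and a higher mean than in B16 for 16, beside 50.6%, with Tgtp1 the exception in both. Past limma's adjusted threshold 2 were higher and 0 lower in GL261 against control, beside 2.58% of all genes tested that were higher, 0 in B16 against control and 0 between the tumors. At limma's unadjusted p under 0.05, 11 were higher and 0 lower in GL261 than in B16 MLECs, beside 3.29% and 2.21% of all genes tested, and 0 differed between B16 and control. Tgtp2 had 21.6, 18.6 and 11.2 FPKM in control, 145, 152 and 166 FPKM in GL261 and 28.3, 9.72 and 9.68 FPKM in B16 libraries, and its GL261 libraries were above all others. It was higher in GL261 than in control MLECs by 3.15 (standard error 0.56, limma's Benjamini-Hochberg adjusted p = 0.0113). Gbp4 had 0, 0 and 2.52 FPKM in control, 48.1, 34.7 and 53.0 FPKM in GL261 and 3.68, 0 and 0 FPKM in B16 libraries, and the difference from control was 4.91 (standard error 0.93, limma's Benjamini-Hochberg adjusted p = 0.0146). Both calls were lost without GL261 replicate 1, 2 or 3. Limma's adjusted p was then 0.0618, 0.0674 and 0.0511 for Tgtp2 and 0.0701, 0.0609 and 0.0565 for Gbp4. Both were also lost with the number of genes above 0 as a covariate (limma's adjusted p 0.361 for Tgtp2 and 0.386 for Gbp4) and with the relative depth (0.458 and 0.28). With these covariates the difference was 4.10 and 4.33 for Tgtp2 and 6.04 and 8.43 for Gbp4. The Gbp4 call was lost with a pseudocount of 0.1 as well (limma's adjusted p 0.0741). The median difference of the 17 genes was 2.57 between GL261 and B16 MLECs, 2.19 between GL261 and control and -0.23 between B16 and control, beside 0.01, 0.23 and 0.20 for all genes tested.

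Markers of cell types were set beside these values. All 9 lymphatic markers, among them Prox1, Flt4 and Lyve1, were listed above 0 in every library, and their summed FPKM was 13419, 17005 and 13935 in control, 2074, 1075 and 2941 in GL261 and 6698, 2133 and 4104 in B16 libraries. The most abundant was Ccl21c in most libraries and Lyve1 in GL261 replicates 2 and 3, and 4 of the 9 passed limma as lower in GL261 than in control MLECs, beside 0.904% of all genes tested, and 1 as lower in B16, beside 0.502%. The 4, Ccl21c, Flt4, Mmrn1 and Reln, kept their direction but lost the call with either covariate for depth. Flt4 also lost it without GL261 replicate 1 or 2, Mmrn1 without GL261 replicate 1 and Reln without GL261 replicate 2 or 3. The B16 call, Mmrn1, was lost in 11 of 18 alternatives. The 10 markers of blood endothelium summed to 2184, 2558 and 2501 FPKM in control, 14427, 12203 and 6548 FPKM in GL261 and 4396, 5130 and 5617 FPKM in B16 libraries, with Ly6a, Ly6c1, Emcn or Cldn5 the most abundant. Of these 10, 7 passed as higher and 2 as lower in GL261, beside 2.58% and 0.904% of all genes tested, and 5 as higher in B16, beside 1.61%. With either covariate for depth, Ly6c1 alone still passed in GL261, and the others kept their direction. In B16, Ly6c1 passed with both covariates and Flt1 with the number of genes above 0 only. Ly6a and Ly6c1 are themselves known to respond to interferons. The part of these shifts in the values of the interferon-stimulated genes was not tested.

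Markers of leukocytes differed widely between genes and libraries. Of 23 such genes, 10 were listed at 0 in all 9 libraries, among them Ptprc (CD45), Adgre1, Cd3e, Cd8a and Siglech. Their summed FPKM was 267, 459 and 522 in control, 141, 468 and 55.6 in GL261 and 124, 310 and 42.6 in B16 libraries, with Fcer1g (at most 390 FPKM, in control replicate 3) the most abundant in 7 libraries, Lyz2 (324 FPKM) in GL261 replicate 2 and Fcgr3 in GL261 replicate 3. The sums of the 3 groups overlapped. Of the 23 markers 5 were tested, and 0 passed limma's adjusted threshold in any comparison. Fcer1g, 1 of the 5, was lower in GL261 and in B16 than in control MLECs at an unadjusted p under 0.05, beside 5.53% and 5.04% of all genes tested.

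Of 6 markers of endothelium in general, such as Pecam1, 0 passed limma's adjusted threshold in any comparison, and at an unadjusted p under 0.05 2 were higher in B16 than in control MLECs, beside 9.95% of all genes tested. Of 6 fibroblast markers, 1 was tested, Dcn, with 21.8, 44.9 and 15.7 FPKM in control and at most 0.146 FPKM in the other libraries. Dcn met the filter through its control libraries alone. Tested without a filter, it passed as lower in GL261 (limma's Benjamini-Hochberg adjusted p = 0.0183) and in B16 MLECs (0.0203), where 0.904% and 0.502% of all genes tested with the filter were lower. With the number of genes above 0 or the relative depth as a covariate Dcn did not pass. Its GL261 difference of -4.56 was -5.06 and -5.31 with these covariates, and its B16 difference of -4.63 was -4.91 and -5.03. Among 6 mural cell markers, 2 were tested and 0 passed limma's adjusted threshold, with 1 lower in GL261 than in control MLECs at an unadjusted p under 0.05, beside 5.53% of all genes tested, and control replicate 1 alone held 641 FPKM of Tagln and 505 FPKM of Acta2. Of 7 melanocyte markers, 4 were listed at 0 in all 9 libraries and the highest value was 4.07 FPKM (Pmel, GL261 replicate 2). Of 13 markers of glia and neurons, 5 were listed at 0 throughout, and Tubb3 was the highest, at 25.4 FPKM in B16 replicate 3. Of 5 erythroid markers the highest value was 8.37 FPKM (Hba-a1, B16 replicate 2).

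Of 14 genes that every cell uses, 4 were higher and 0 lower past limma's adjusted threshold in GL261 than in control MLECs, beside 2.58% and 0.904% of all genes tested, and 2 higher and 1 lower in B16, beside 1.61% and 0.502%. The GL261 calls of Actb, Gapdh and Tbp were lost without GL261 replicate 1 (limma's adjusted p 0.0718, 0.0891 and 0.16) and with either covariate for depth. The B16 calls of Gapdh and Tbp were lost in 11 of 18 and 10 of 16 alternatives. Between the tumors 1 of the 14 passed, B2m, the light chain of MHC class I molecules, which interferons are also known to induce, and no other of the 9955 genes tested did. B2m had 4630, 5650 and 7943 FPKM in control, 15800, 18700 and 16930 FPKM in GL261 and 3268, 3525 and 3114 FPKM in B16 libraries. All GL261 libraries lay above and all B16 libraries below all control libraries. Between GL261 and B16 MLECs the B2m difference was 2.37 (standard error 0.18, limma's Benjamini-Hochberg adjusted p = 2e-04), and passed in all 18 alternatives, with differences between 2.04 and 2.51. Against control, the B2m difference was 1.53 in GL261 (limma's Benjamini-Hochberg adjusted p = 0.00103), a call lost with the number of genes above 0 (0.35) and with the relative depth (0.276) as a covariate. The GL261 difference was 1.34 and 1.81 with these covariates. In B16 MLECs the B2m difference from control was -0.84 (limma's Benjamini-Hochberg adjusted p = 0.0329), a call lost in 11 of 18 alternatives, among them those without control replicate 2 or 3 (0.0532 and 0.0628), without GL261 replicate 1, 2 or 3 (0.0569, 0.0566 and 0.0524) and without B16 replicate 1, 2 or 3 (0.0908, 0.0844 and 0.121).

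Promoters were searched for the interferon-stimulated response element, taken as GAAA, any 2 bases and GAAA again, on both strands of the window from 250 bases before to 50 bases after each gene's start, in sequences from RefSeq for the build GRCm38.p6. Matches were allowed to overlap. A promoter was listed for 28 of the 37 genes, and 12 of the 28 (42.9%) held the motif, beside 3.99% of 27025 genes with a promoter, 3.78% of 7588 genes tested and 19 of 43 other response genes (44.2%). The genes without an entry were Oas2, Mx1, Mx2, Usp18, Dhx58, Parp9, Parp14, Zbp1 and Rtp4. The motif was found for Ifit1, Ifit3, Isg15, Stat2, Oas1a, Oas3, Rsad2, Ifih1, Ddx58, Bst2, Ifitm3 and Eif2ak2. Of the 6 genes that passed in GL261 MLECs, Ifit3, Rsad2 and Ifitm3 held it, while the windows of Irf7 and Oasl2 did not contain these letters, which says nothing about other forms of the element.

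One window of 30 bases around the motif, which is in capitals, is shown 5′ to 3′ on the strand that holds the motif for the 7 genes with the motif whose GL261 libraries all lay above all B16 libraries. They are shown for the bases around the motif in genes chosen by that order, and 0 of the 7 passed limma between the tumors.
Ifit1, chr19:34640794-34640823, minus strand: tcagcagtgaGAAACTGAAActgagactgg
Ifit3, chr19:34583397-34583426, minus strand: gaggaaagtaGAAACTGAAAcagacttaaa
Rsad2, chr12:26456553-26456582, plus strand: tctgttttctGAAAATGAAAgttggaccag
Oas1a, chr5:120907526-120907555, minus strand: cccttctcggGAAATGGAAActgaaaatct
Isg15, chr4:156200871-156200900, minus strand: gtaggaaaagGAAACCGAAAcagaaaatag
Bst2, chr8:71537577-71537606, minus strand: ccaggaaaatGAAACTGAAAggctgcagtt
Ifitm3, chr7:141010706-141010735, minus strand: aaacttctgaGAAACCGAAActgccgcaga
Capitals mark 1 match per window. The promoter held 3 matches for Isg15, 2 each for Ifit1, Ifit3, Oas1a, Bst2 and Ifitm3 and 1 for Rsad2, and in the windows of Isg15, Oas1a and Bst2 further matches overlap the marked one. A match is a description of the sequence and not evidence that a factor binds there in MLECs.

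These values rest on 3 libraries per group, each of 10 cells, and the control libraries were the shallowest. Many members were listed at 0 in control or B16 libraries, and a value of 0 from a shallow library cannot be told apart from a low level. Most GL261 calls were lost when a GL261 library was left out. Tumor line and time after injection cannot be told apart, nor can a change of transcription within cells and a change in which cells were sorted. No protein, interferon level or receptor signaling was measured in these libraries.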

How the data were processed

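The authors deposited expression as FPKM, 1 value per gene and library, from reads that they had trimmed, mapped to mm9 (TopHat 2.0.12) and summarised with Cufflinks 2.2.1. The gene annotation and the use of strand are not given in the sources used here. FPKM sums differ between libraries, and the values were used as deposited. Groups and replicate numbers follow the labels, which differ from the methods for MLEC collection in the route of injection and the number of cells.

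Values were taken as log2(FPKM + 1), with a pseudocount of 1. Genes that reached an FPKM of 1 in 3 or more libraries, 9955 in all, were tested with limma 3.58.1 under R 4.3.3 (lmFit, eBayes with trend), adjusted by Benjamini-Hochberg over all of them at a threshold of 0.05. The joined tumors were fitted as 2 groups and the other comparisons in 1 fit of 3 groups. The fit was tried on simulated data. Exact permutation tests, two-sided, ran over 84 divisions for the joined tumors; 3 libraries against 3 cannot go below p = 0.1. Relative depth came from the commonest ratio of low genes between libraries. Positions are from GENCODE M1 (mm9), near-identical transcripts (at least 95% identity over 50% of the length) from blastn 2.17.0, promoters from RefSeq. Figures were drawn with matplotlib 3.10.9 and tables made with pandas 2.3.3, scipy 1.17.1 and numpy 2.4.6 under Python 3.11.15.

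The 37 genes and the other lists were chosen with earlier results of these data known. Members are given in every library if past the threshold in any comparison, if control and tumor or GL261 and B16 libraries do not overlap, or if transcription factors, and otherwise by range and counts. From the other lists, genes past the threshold or without overlap, receptors, kinases and the most abundant markers could be named. Usp18, Lgals3bp, Tgtp1, Oas2, Oas3, Mx1, Mx2 and the highest melanocyte, glial and erythroid values were chosen after their values were seen. Alternatives were a pseudocount of 0.1, rescaling to a sum of 1000000, quantile normalization, no filter, a mean FPKM of at least 10, the replicate number as a block, the number of genes above 0 as a covariate and each library left out. The relative depth as a covariate and the restriction to genes above 0 in all 9 libraries were added after seeing the data.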

Additional observations from a re-analysis of the deposited data

Results flagged for a closer look

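In the 6 tumor-associated libraries, the highest or lowest library stood far from the nearest other one for 6 of the 37 genes, measured as the gap divided by the whole range on the log2(FPKM + 1) scale. Chance flags about 1 in 20 groups of normally distributed values. That rate does not carry over here, where the group joins both tumors and several genes were listed at 0 in most libraries. A gene above 0 in 1 library alone has a gap of 1.0 by construction. GL261 replicate 1 was the high library for the 4 genes that were not tested, with a gap of 1.0 of the range for Oas2 and for Oas3, which were listed at 0 in the other 5 libraries, 0.815 for Mx1 and 0.915 for Mx2. B16 replicate 2 was the low library, listed at 0, for Stat2 (0.656) and Zbp1 (0.651). GL261 replicate 1 had a relative depth of 6.28 and was the highest of all 9 libraries for 16 of the 37 genes, and B16 replicate 2 had a relative depth of 3.13. The part of depth in these values was not tested.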

How the results depend on the processing

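The count of 6 genes in GL261 against control MLECs moved to 3 with a pseudocount of 0.1, to 0 without a filter on low values, to 0 with the number of genes above 0 and 0 with the relative depth as a covariate, and to 2 among the 12 members above 0 in all 9 libraries. It was 4 after rescaling to the same sum, 5 after quantile normalization and 5 with a mean FPKM of at least 10. The relative depth and the restriction to genes above 0 in all libraries were chosen after seeing the data. Leaving out 1 library gave 0 to 6 members in GL261 against control, 0 to 1 in B16 against control, 0 to 2 with the tumors joined and 0 in all cases between the tumors. The cause was not tested.

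The median difference of the members moved as follows. With the tumors joined it was 0.80 with a pseudocount of 0.1, -0.85 with the number of genes above 0, -0.94 with the relative depth and -0.40 among members above 0 in all libraries, and 0.00 to 0.47 without 1 library. In GL261 against control it was 1.45 with a pseudocount of 0.1 and 0.78 to 1.41 without 1 library. In B16 against control it was -0.68 with the number of genes above 0, -0.49 with the relative depth, -0.84 among members above 0 in all libraries and -0.36 to 0.00 without 1 library. Between GL261 and B16 it was 1.05 among members above 0 in all libraries and 1.41 to 2.00 without 1 library, and it was above 0 under every alternative tried. The median of all genes tested in GL261 against control moved from 0.23 to 0.02 after rescaling, with 173 genes higher and 111 lower in place of 257 and 90.

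With the number of genes above 0 and with the relative depth as a covariate, the difference changed sign for 11 and 10 of the 37 members in GL261 against control, 5 and 3 in B16 against control, 11 and 11 with the tumors joined and 6 and 5 between the tumors. Xaf1, whose libraries did not overlap between GL261 and control, was among them and turned to -0.63 with each covariate, and Socs1 of the inhibitors turned to -0.47 with the relative depth. With the replicate number as a block, 4 members passed in GL261 against control and 0 in the other comparisons. Correlations of the deviations of same-numbered libraries lay between -0.0334 and 0.0443, and those of differently numbered libraries between -0.0302 and 0.0522. With 10 cells per library, values this near 0 cannot decide whether the numbers mark pairs.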
